A study of Bos taurus with 20 samples.

Results

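The miR-99/100 and miR-125 families were examined across the small RNA libraries of bull spermatozoa. Members were chosen by name, as the rows for bta-miR-100, bta-miR-99a-5p, bta-miR-99a-3p, bta-miR-99b, bta-miR-125a and bta-miR-125b, which are 6 of the 1029 mature miRNAs listed. The libraries came from 20 Holstein-Friesian bulls with 1 library per bull, of which 10 had high fertility (HF) and 10 had low fertility (LF). The grouping rested on field fertility adjusted by an animal model. RNA was taken from frozen-thawed spermatozoa pooled over 3 ejaculates of each bull, so each value averages ejaculates and each bull is a replicate. All bulls are of the same breed, and their ages are not given in the labels.

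A miRNA pairs with its target mRNAs mainly through the seed near its 5′ end, and miRNAs with the same seed are grouped as a family. miR-100, miR-99a-5p and miR-99b share a seed and are known to repress components of mTOR signalling, whereas miR-125a and miR-125b are the vertebrate counterparts of lin-4, the worm miRNA that times development. In vertebrates both families sit beside let-7, itself a developmental timer, in small conserved clusters. In the RefSeq annotation of ARS-UCD2.0, used here for gene order only, chromosome 15 holds MIR125B-1, MIRLET7A-2 and MIR100, chromosome 1 holds MIR125B-2, MIRLET7C and MIR99A, and chromosome 18 holds MIR99B, MIRLET7E and MIR125A. In each of the 3 spans these 3 genes were the only miRNA genes. The cluster partners considered were therefore bta-let-7a-5p, bta-let-7c and bta-let-7e.

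Values are TMM-normalized counts on the CPM scale, from which the reads behind each value were recovered. Reads on miRNAs ranged from 103203 to 3097585 per HF library and from 310183 to 1640174 per LF library. A level of 3 reads was set as the floor of a library. It corresponded to normalized counts between 1.19 (HF bull 2) and 27.6 (HF bull 17), a limit that covers counting error only. Values below this floor occur, as for miR-99a-3p. The 5 miRNAs listed as markers of sperm and spermatids, miR-34b, miR-34c and miR-449a to c, which ciliated epithelium also makes, had reads in all 20 libraries and summed to between 25829 and 77203 normalized counts.

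bta-miR-100 was the most abundant miRNA of the table. Its normalized count in HF bulls was lowest at 322599, had a median of 410487 and was highest at 614881. In LF bulls the lowest was 249855, the median 376711 and the highest 497089. The ranges of the groups overlapped, with HF bull 2 at the top and LF bull 13 at the bottom. At least 40019 reads stood behind each of these values.

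bta-miR-99a-5p, the guide arm of its hairpin and near-identical in sequence to miR-100, ranked 4 by mean level. It ran from 30607 through a median of 43752 to 59136 normalized counts in HF bulls, and from 34153 through 40546 to 54832 in LF bulls. The LF range lay inside the HF range. How many reads near-identical miRNAs such as these can exchange through sequencing errors was not tested.

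bta-miR-99a-3p, the passenger arm of the same hairpin, was close to the limit of detection. It had at least 1 read in 6 HF and 4 LF libraries and 23 reads in all, 7 of them in HF bull 14, with levels of 0 to 5.32 normalized counts in HF and 0 to 1.98 in LF. Only 2 libraries held 3 or more of its reads. Against 981107 reads of the 5p arm, the 5p to 3p ratio over all libraries was 42657, with a 95% counting interval of 28429 to 67291, so the hairpin was represented almost wholly by the 5p arm.

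bta-miR-99b, the family member of the chromosome 18 cluster, ranked 65. Its levels were 295, 691 and 1775 normalized counts at the lowest, median and highest HF bull and 463, 837 and 1066 in LF. The HF bulls spread wider than the LF bulls, at both ends.

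bta-miR-125b, which has 2 hairpin genes and is known for repressing LIN28, ranked 12. Its lowest, median and highest HF levels were 5780, 17863 and 29350 normalized counts, and those in LF were 6017, 15482 and 24760. The groups overlapped over most of their range, with HF bull 14 and LF bull 18 the lowest of their groups. In 10 of the 20 libraries its value was not a whole number of reads, whereas the members with 1 hairpin gene were whole in all 20. Its level therefore cannot be divided between the clusters on chromosomes 1 and 15.

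bta-miR-125a, which shares the miR-125 seed and is known from blood-forming cells, ranked 108. It ran from 32.7 through a median of 203 to 843 normalized counts in HF bulls and from 67.9 through 236 to 594 in LF bulls. The highest HF bull, 12, stood 25.8 times above the lowest, 14, the widest range among the 5 members with substantial counts. The lowest level rested on 43 reads, and the fewest reads behind any level of it were 14, in the shallow library of HF bull 17.

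**Figure D1:**
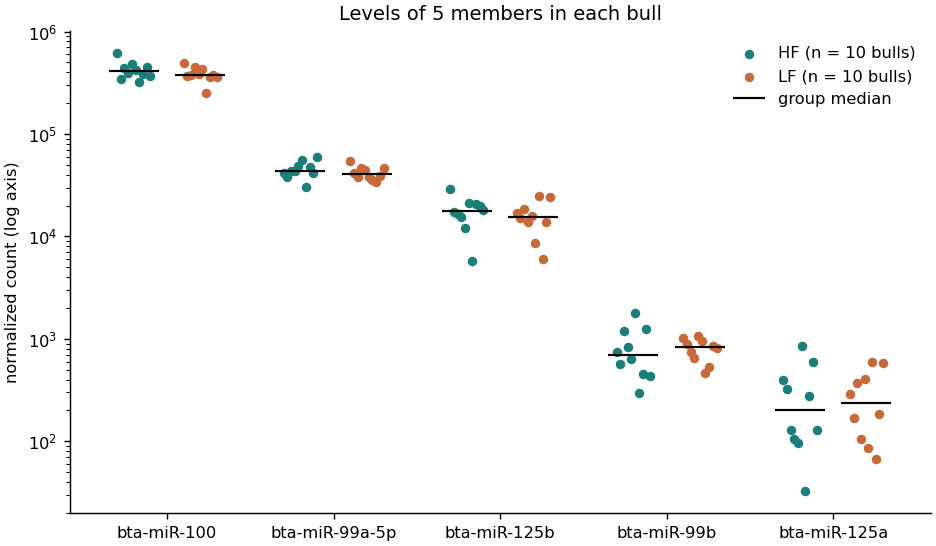
Normalized counts (log axis) of 5 members in each of the 10 HF and 10 LF bulls, with a point per bull and a bar at the group median. The groups overlap for every member, levels fall from miR-100 to miR-125a, and miR-125a has the widest spread.

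By normalized count, HF bull 14 was the lowest of all 20 bulls for miR-99a-5p, miR-99b, miR-125b and miR-125a. It also held the lowest HF value for miR-100 and the highest value for miR-99a-3p. Its library was of ordinary depth, at 1154590 reads. Part of this depends on the scaling. As a percent of counts, HF bull 2 was lower for miR-99a-5p (3.38% against 3.49%) and LF bull 18 for miR-125b (0.617% against 0.658%). HF bull 3 was lower for miR-100 (36.5% against 36.7%). For miR-99b and miR-125a, HF bull 14 stayed the lowest.

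The order of levels was tested within bulls, on the log2 ratio of neighbours in the order. The order was itself taken from the mean levels of these libraries, so the p-values do not test an order set beforehand. miR-100 exceeded miR-99a-5p 9.27-fold, miR-99a-5p exceeded miR-125b 2.76-fold, miR-125b exceeded miR-99b 20.9-fold and miR-99b exceeded miR-125a 3.51-fold, as geometric means. All 5 neighbouring pairs, miR-125a over miR-99a-3p included, differed by a two-sided paired permutation test (p = 1e-05 for each pair, the smallest that 100000 resamples can give, and also 1e-05 after adjustment over the 5 pairs). The direction was the same in 20 of 20 bulls for every pair except miR-99b over miR-125a, where 19 of 20 bulls showed it and LF bull 13 had the reverse order. This is an order of counts in the libraries, and whether it is also the order of molecules was not tested.

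Together the 6 members made up 46.0% ± 4.03 (SD, n = 20 bulls) of all normalized counts. The share ran from 40.9% to 55.7% in HF, with a median of 47.5%, and from 38.6% to 50.0% in LF, with a median of 44.3%. The extremes were LF bull 13 (Wilson 95% interval 38.5% to 38.8%) and HF bull 2 (55.6% to 55.7%), and the HF and LF ranges overlapped. miR-100 alone gave 39.9% ± 4.11. With miR-100 set aside, the other members were 10.2% ± 1.69 of the remaining counts.

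The miR-99/100 guide strands held 44.3% ± 4.09 of the counts and miR-125 held 1.70% ± 0.618 (SD, n = 20). LF bull 13 had the smallest miR-99/100 share, 35.5%, and at the same time the largest miR-125 share, 3.14%. The smallest miR-125 share, 0.624%, was in LF bull 18. These shares are a description of the libraries and were not tested between groups.

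Within each family a single member dominated in all 20 bulls. miR-100 was 90.0% ± 1.66 of the miR-99/100 guide strands, from 86.1% in HF bull 17, the shallowest library, to 93.5% in HF bull 2. miR-99a-5p was 9.84% ± 1.65 and miR-99b 0.180% ± 0.0683. miR-125b was 98.5% ± 0.869 of the miR-125 family and miR-125a the remaining 1.54%, with miR-125a at its largest share, 3.81%, in HF bull 12.

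**Figure D2:**
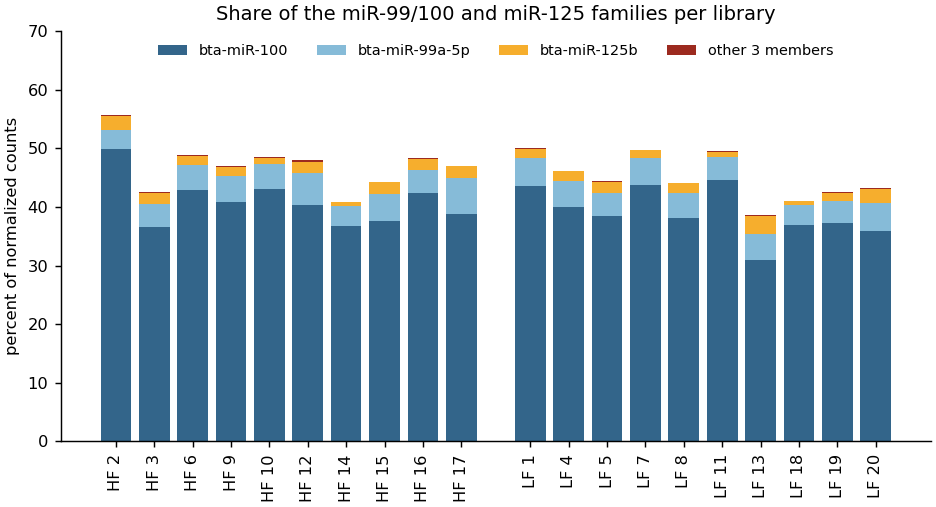
Percent of all normalized counts taken by the members in each library, stacked from miR-100 at the bottom, with HF bulls on the left and LF bulls on the right. miR-100 forms most of every bar, and the bars end between 38.6% (LF bull 13) and 55.7% (HF bull 2).

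The comparison of HF with LF asked whether any member differed with bull fertility. None of the 5 members that passed the filter on low values passed the test. By limma on log2(normalized count + 1), 0 of the 5 had an unadjusted p under 0.05, with or without the fold change limit of 1.5, against 3.45% and 2.07% of all 435 miRNAs tested without and with that limit. With so few members and such a background, a count of 0 does not set them apart from the other miRNAs or show that they did not differ. No miRNA had an adjusted p under 0.05 in limma, where 15 of 435 had an unadjusted p under 0.05, or in the other tests. The edgeR quasi-likelihood test, the edgeR likelihood ratio test and DESeq2 on recovered reads placed 0 of the 5 under an unadjusted p of 0.05. Of the 435, they placed 18, 17 and 18 under that p, and 13, 13 and 11 past the p and fold change limits.

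miR-100 was at 423137 ± 83714 (SD, n = 10) normalized counts in HF and 384416 ± 64941 in LF, a log2 fold change of 0.14 (SE 0.12, limma p = 0.28, adjusted p = 0.96). Of the 10 HF bulls, 7 lay above the LF median. For miR-99a-5p the log2 fold change was 0.10 (SE 0.12, limma p = 0.43), and 8 HF bulls lay above the LF median. The 95% intervals, from -0.12 to 0.39 for miR-100 and from -0.15 to 0.34 for miR-99a-5p, stayed inside a 1.5-fold change in either direction.

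The intervals of the other members reached past a 1.5-fold change. miR-125b was at 17666 ± 6170 (SD, n = 10) in HF and 15813 ± 5986 in LF, with a log2 fold change of 0.17 and an interval from -0.36 to 0.69. For miR-99b the log2 fold change was -0.12, with an interval from -0.65 to 0.42. For miR-125a it was -0.16, with an interval from -1.19 to 0.88. The signs of these last members are not settled, since miR-99b and miR-125a turned slightly positive in the count tests and also without HF bull 14, at 0.025 and 0.13. miR-99a-3p, fitted without the filter, had a log2 fold change of 0.31 (SE 0.35, limma p = 0.39) on the scale with 1 added, but its 23 reads are too few for a difference between the groups to be read from it.

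The let-7 partners showed no difference past the test either. The log2 fold change was -0.05 (SE 0.18) for let-7a-5p, -0.03 (SE 0.18) for let-7c and -0.32 (SE 0.23, limma p = 0.18, adjusted p = 0.94) for let-7e. The value of let-7e leaned on HF bull 17, the shallowest library, where it had 4 reads, and was -0.16 without that bull. let-7a-3p, by name the other arm of let-7a, had a log2 fold change of -0.10 (SE 0.16). Which of the let-7a hairpins its reads came from was not tested.

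**Figure D3:**
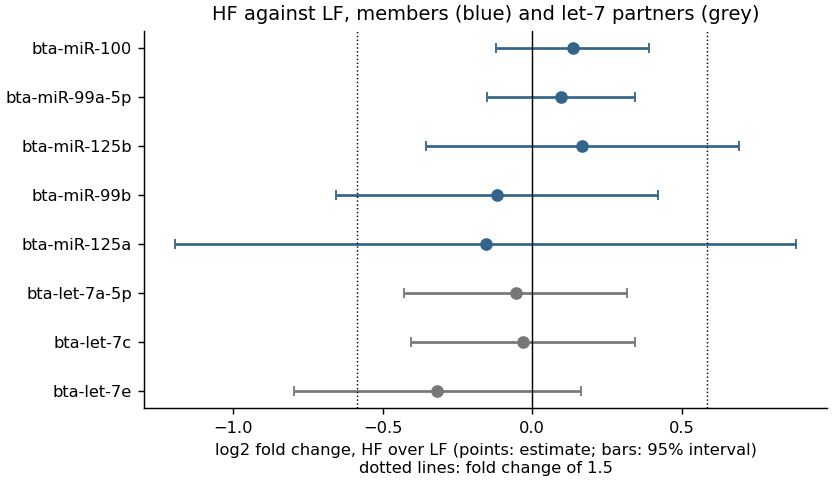
limma log2 fold change of HF over LF for 5 members and 3 let-7 partners, with points for the estimate, bars for the 95% interval and dotted lines at a 1.5-fold change. Every interval includes 0, and the interval of miR-125a, from -1.19 to 0.88, is the widest.

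In a ratio of abundant members the library's scaling all but cancels. Of 10 log2 ratios compared, within families, within clusters and between hairpin arms, 0 passed a two-sided permutation test between HF and LF, with unadjusted p between 0.31 and 0.94 and adjusted p = 0.94 for each. The arm ratio is not read, since miR-99a-3p was at 0 in 10 libraries and the pseudocount and depth then set the value, at -0.22 on the log2 scale with a pseudocount of 1 and -0.026 with 5. The ratio of miR-100 to miR-99a-5p had the smallest spread of the 10 (SD 0.27 on the log2 scale), from 6.22 in HF bull 17 to 14.8 in HF bull 2. The ratio of miR-125b to miR-125a ranged from 25.2 in HF bull 12 to 172 in HF bull 14. In the chromosome 18 cluster, where both hairpins lie beside let-7e, the ratio of miR-99b to miR-125a ranged from 0.781 in LF bull 13 to 10.9 in LF bull 11. The value of LF bull 11 rests on 28 reads of miR-125a.

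The members differed in how far they varied between bulls. Among the 160 kept miRNAs with a mean of at least 100 normalized counts, the median SD of log2 level was 0.44. miR-99a-5p, with an SD of 0.24, and miR-100, with 0.27, took places 155 and 148 from the most variable. miR-99b and miR-125b, each at 0.62, took places 37 and 36. miR-125a, at 1.24, took place 4. Counting error is larger for rarer miRNAs, and its part in these spreads was not tested. miR-125a had a median of 243.5 reads per library. The partner let-7e, with a lower median of 135 reads, had an SD of 0.53 and took place 51.

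Co-variation was computed over the 20 bulls for 33 pairs, namely all pairs of members and each member with each let-7 partner. Levels were log2(normalized count + 1), and the p-values are two-sided permutation p-values adjusted over the 33. A single pair passed an adjusted p of 0.05, miR-125b with miR-125a, whose hairpins lie on different chromosomes. Their Pearson's r was 0.84 and Spearman's rho 0.86 (permutation p = 1e-05 and adjusted p = 0.00033 for each, the smallest the resamples can give). The relation held within HF (r = 0.83) and within LF (r = 0.92), stayed between 0.79 and 0.87 without any single bull, and was 0.77 without HF bull 14 and LF bull 18.

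Beside their background, this pair stood high. The r of miR-125b with the other 434 kept miRNAs had a median of 0.022, and miR-125a took place 2 among them. The r of miR-125a with its 434 others had a median of 0.034, and miR-125b took place 1. The r was 0.84 without the TMM factor and 0.82 when levels were scaled to the reads other than miR-100.

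**Figure D4:**
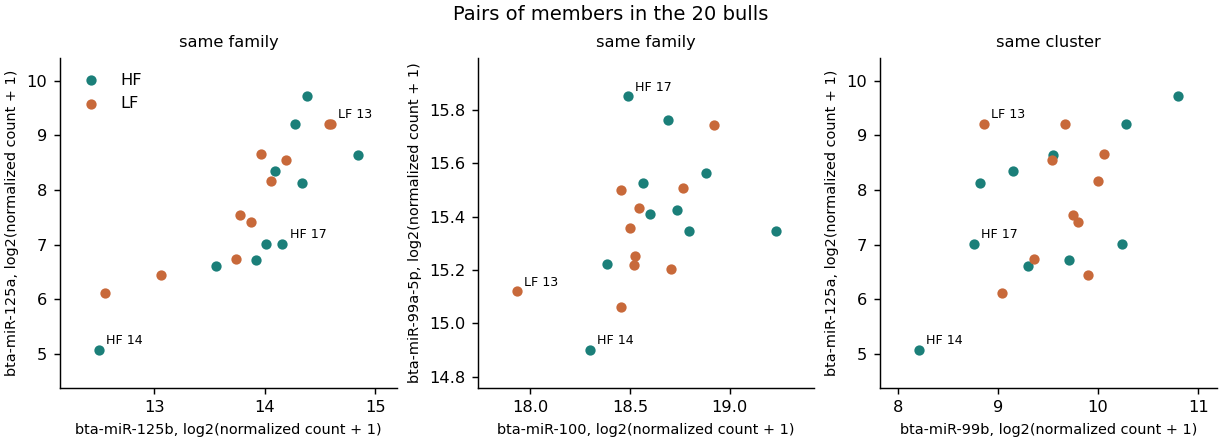
log2(normalized count + 1) of 3 pairs of members, with a point per bull (HF and LF in different colours) and bulls HF 14, HF 17 and LF 13 named. miR-125a rises with miR-125b (r = 0.84), whereas miR-100 with miR-99a-5p (r = 0.44) and the cluster neighbours miR-99b with miR-125a (r = 0.48) scatter more widely.

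Neighbours within a cluster did not pass with all 20 bulls and the deposited scaling. On chromosome 18, miR-125a and let-7e had r = 0.58 and rho = 0.58 (permutation p = 0.0062, adjusted p = 0.10), with 0.60 within HF and 0.59 within LF. miR-99b and let-7e had r = 0.43 (permutation p = 0.060, adjusted p = 0.22). miR-99b and miR-125a had r = 0.48 (permutation p = 0.031, adjusted p = 0.19). Their r stayed between 0.31 and 0.60 without any single bull. It was 0.12 without HF bulls 14 and 12, the lowest and highest in miR-99b. Leaving out both ends narrows the range and so tends to lower r. That pair also split by group, at 0.67 within HF and 0.056 within LF, a difference that was not tested.

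On chromosome 1, miR-99a-5p had r = -0.06 with let-7c and 0.50 with miR-125b (permutation p = 0.026, adjusted p = 0.19). The latter was 0.33 without HF bulls 14 and 17, and rho was 0.27. On chromosome 15, miR-100 had r = -0.24 with let-7a-5p and 0.16 with miR-125b, the latter at 0.59 within HF and -0.33 within LF. Both miR-125b and let-7a-5p have hairpins elsewhere too, so these values do not isolate the transcript of the cluster. miR-100 and miR-99a-5p, of the same family but different chromosomes, had r = 0.44 and rho = 0.45 (permutation p = 0.055 and 0.047, adjusted p = 0.22 and 0.29).

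Without the 2 shallowest libraries, HF bull 17 and LF bull 11, 4 pairs passed. These were miR-125b with miR-125a, the cluster neighbours miR-125a with let-7e (r = 0.71), and from different clusters miR-125b with let-7e (r = 0.67) and miR-99a-5p with miR-99b (r = 0.66). Without the TMM factor, 3 pairs passed, and the added pairs were miR-100 with its cluster neighbour let-7a-5p (r = -0.70) and with let-7c of another cluster (r = -0.73). There every library has the same total, and miR-100 takes 31.0% to 49.8% of it. A higher miR-100 then lowers the other shares by arithmetic, and the permutation p cannot tell this from co-variation. On that scale the r of miR-100 with miR-99a-5p was -0.11, so the sign of this relation depends on the scaling. miR-99a-3p is too sparse for its correlations to be read.

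**Figure D5:**
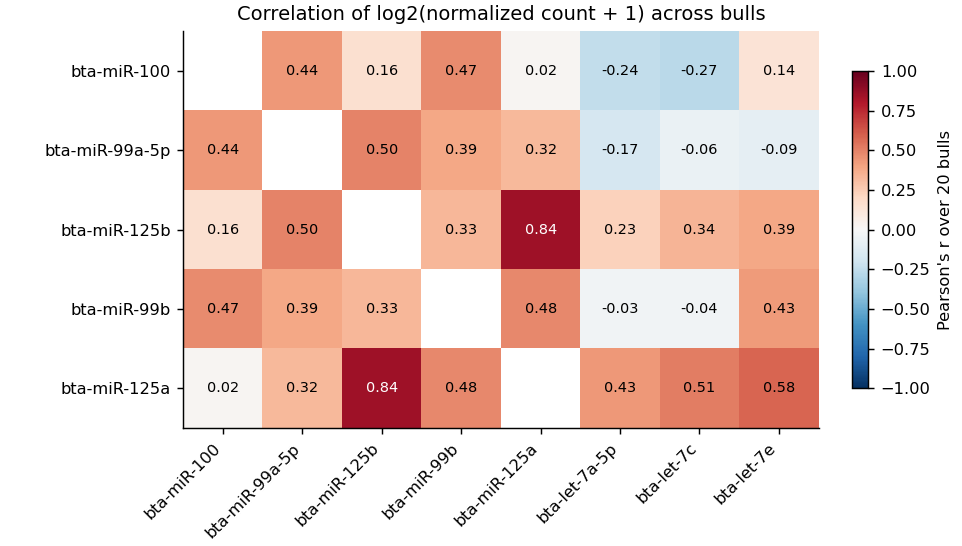
Pearson's r over 20 bulls of log2(normalized count + 1), for 5 members (rows) with each other and with 3 let-7 partners (columns), coloured from -1 (blue) to 1 (red). The cell of miR-125b with miR-125a is the highest, at 0.84, and cells of cluster neighbours range from miR-125a with let-7e, at 0.58, to miR-100 with let-7a-5p, at -0.24.

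The 3 miRNAs most like each member were taken by r over the 20 bulls, as a description. For miR-100 they were bta-miR-769 (r = 0.68), bta-miR-2285bm (0.59) and bta-miR-2284n (0.57). For miR-99a-5p they were bta-miR-151-3p (0.67), bta-miR-873 (0.66) and bta-miR-2284n (0.63). For miR-99b they were bta-miR-25 (0.72), bta-miR-2308 (0.67) and bta-miR-331-3p (0.58). miR-100 and miR-99a-5p thus shared bta-miR-2284n, which averaged 10.7 normalized counts, and none of these lists held a cluster partner.

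For miR-125b the most alike were bta-miR-2483-5p (r = 0.85), miR-125a (0.84) and bta-miR-7857-3p (0.83). For miR-125a they were miR-125b (0.84), bta-miR-7859 (0.81) and bta-miR-128 (0.81), and bta-miR-128 averaged 9927 ± 3398 (SD, n = 20) normalized counts. The lists of the miR-125 members crossed, in that bta-miR-2483-5p and bta-miR-7857-3p had r = 0.70 and 0.74 with miR-125a, and bta-miR-7859 and bta-miR-128 had 0.73 and 0.75 with miR-125b. For miR-99a-3p the highest were bta-miR-130a (0.57), bta-miR-199a-3p (0.56) and bta-miR-199c (0.56), which rest on its 23 reads.

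The members were also set against summed markers of cell types that semen can hold, in 24 relations with p adjusted over the 24. miR-125a passed with the blood markers, at r = 0.71 and rho = 0.70 (permutation p = 0.00055 and 0.0010, adjusted p = 0.013 and 0.016), with 0.76 within HF, 0.71 within LF and 0.68 without HF bulls 14 and 12. All 6 blood markers had a read, and their sum ran from 65.9 to 239 normalized counts in HF and from 51.2 to 301 in LF. By mean level the sum was made of miR-142-5p (92.6), miR-150 (21.1), miR-451 (17.5) and, each under 3 normalized counts, miR-142-3p, miR-223 (2.02) and miR-144 (0.196). miR-142-5p, miR-150 and miR-451 had reads in all 20 libraries, though each had as few as 2 in a library, below the floor of 3. Their own r with miR-125a was 0.59, 0.61 and 0.34. The sperm pellets had been treated with a somatic cell lysis buffer before RNA extraction. The paper also reports that RT-PCR for the leukocyte gene PTPRC gave no product in the sperm RNA it tested. The part of blood cells in the level of miR-125a was not tested here.

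By rank, miR-125b also passed with the blood markers (rho = 0.66, adjusted permutation p = 0.016, r = 0.50) and with the sperm markers (rho = 0.67, adjusted permutation p = 0.016, r = 0.57), and miR-125a with the sperm markers (rho = 0.61, adjusted permutation p = 0.028, r = 0.52). By r these last 3 had adjusted p between 0.11 and 0.13. The r of miR-125b with miR-142-5p, miR-150 and miR-451 alone was 0.29, 0.62 and 0.39. It was lowest for miR-142-5p, the largest part of the blood sum. The epithelium markers, 7 of 7 with a read, summed to 17050 to 24349 in HF and 17693 to 27773 in LF, and the stroma markers, 6 of 6 with a read, to 138 to 1745 in HF and 235 to 2128 in LF. No member passed with either. No member passed with the number of reads per library, where miR-100 had the highest r, 0.46 (permutation p = 0.046, adjusted over 6 relations p = 0.28). In bulk RNA, fewer cells of a type and less RNA per cell cannot be told apart.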

How the data were processed

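Small RNA libraries of spermatozoa from 20 bulls were used. The authors trimmed adapters with cutadapt (version 2.6 in the submitters' processing notes, whereas the paper's methods name an earlier version), removed reads of other short RNAs, aligned the rest with Bowtie to ARS-UCD1.2 with the Y chromosome and counted mature miRNAs of miRBase with miRDeep2. The deposited values are a signal per miRNA and library, counts the authors normalized by library size and a TMM factor. The value of a single read was found in each library, and 95.0% of the 9916 values above 0 came out whole (within 0.02 read). miRNAs with a normalized count under 1 in 10 or more bulls were dropped, which left 435. limma (3.58.1, R 4.3.3, variance trend) was fitted on log2(normalized count + 1) for HF over LF, adjusted over all 435. edgeR (4.0.16) and DESeq2 (1.42.0) were run on recovered reads rounded to whole numbers as alternatives. Other tests were permutation tests with 100000 resamples (numpy 2.4.6, scipy 1.17.1). The members, lists and tests were chosen with earlier results of these data known. Named are the members, their let-7 partners, the 3 kept miRNAs most correlated with each member, and markers a result turns on. Ligation bias was not tested. Sequences, the mRNA libraries, RT-qPCR and the AI center of a bull were not used here. Nothing in the labels ties bulls to a batch, so no within-batch value is given.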

Additional observations from a re-analysis of the deposited data

How the results depend on the processing

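No member was called under any test, filter, pseudocount, scaling or omission of a bull, and the order of levels and the relation of miR-125b to miR-125a kept their calls; with pseudocount 0, 4 of the neighbouring pairs could be tested. The log2 fold changes of miR-99b and miR-125a, within their error in every fit, turned positive with the edgeR quasi-likelihood test (0.050 and 0.075), the edgeR likelihood ratio test (0.049 and 0.065) and DESeq2 (0.016 and 0.025). Leaving out each bull in turn gave ranges of -0.26 to 0.025 for miR-99b and -0.39 to 0.13 for miR-125a, each crossing 0 without HF bull 14 and the latter also without LF bull 13. They were 0.025 to 0.34 for miR-125b, 0.069 to 0.18 for miR-100 and 0.049 to 0.15 for miR-99a-5p, with no change of sign. The HF minus LF log2 ratios ranged likewise from -0.032 to 0.11 for miR-100 to miR-99a-5p, -0.36 to 0.044 for miR-99a-5p to miR-99a-3p, -0.20 to 0.22 for miR-99b to miR-125a, -0.043 to 0.39 for miR-125a to let-7e and -0.18 to 0.10 for miR-100 to miR-125b. Without the TMM factor 3 pairs passed, and r changed sign for miR-100 with miR-99a-5p (-0.11), miR-125b (-0.13), miR-125a (-0.23), let-7e (-0.16), the sperm markers (-0.31) and the epithelium markers (-0.42), and for miR-99a-5p with sperm (-0.00044) and miR-125b with epithelium markers (-0.0047). When levels were scaled to the reads other than miR-100, r of miR-100 with miR-125a was -0.13. Without the 2 shallowest libraries 4 pairs passed, and r changed sign for miR-99a-5p with let-7e (0.36) and with epithelium markers (0.20), miR-99a-3p with epithelium markers (-0.057) and miR-99b with sperm markers (0.087). With deviations from the group means it did so for miR-99a-5p with epithelium markers (0.020) and miR-99b with sperm markers (0.010). The cause of these changes was not tested. No paired analysis was possible because HF and LF are different bulls and nothing in the labels pairs them. Depth limits miR-99a-3p, whose 23 reads are too few to show a difference between HF and LF. It also limits the value of miR-125a in HF bull 17, which rests on 14 reads.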

Other observations

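The miRNAs that ran most strongly against the miR-125 members across the 20 bulls were noticed after their values were seen and are given as a description. bta-miR-2285aj-5p, at 295 ± 94.4 (SD, n = 20) normalized counts, had r = -0.84 with miR-125a and r = -0.69 with miR-125b. bta-miR-320a had r = -0.73 with miR-125a, and bta-miR-23a had r = -0.69 with miR-125b. All of these share library scaling, and no test was made of them. A search of 38 sets of 10 bulls for a value standing apart from the rest found 0, where chance gives about 1.9.

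A miR-125 assay was the reference in the RT-qPCR of the study, which was not analysed here. In the small RNA libraries miR-125b had an SD of log2 level of 0.62 between bulls and miR-125a 1.24, against 0.27 for miR-100. The name of the assay does not say which of them it measures.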
